A study of Mus musculus with 53 samples.

Results

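This account concerns 3 tumours of ThPOK transgenic mice, chosen by their genotype label from 53 arrays of mouse T-cell lymphoblastic tumours. They are set beside 35 tumours of 11 other lymphoma-prone backgrounds, all those whose genotype names neither TLX1 nor p53. The reference holds 3 tumours each of beta-catenin, LMO1 and Nup98HoxD13 (NUP98-HOXD13) transgenic mice, of olig1-LMO1 (Olig-LMO1 in the plots) and Tal1-LMO2 double transgenic mice and of mice labelled Ikaros Plastic. It also holds 9 tumours of Cdkn2a knockout mice with retroviral insertional mutagenesis and 2 each of Pokemon transgenic, Tal1 transgenic, E2A knockout and rag E2A knockout mice. The titles of the olig1-LMO1 arrays name olig2 instead, and the genotype label is followed here. All 38 are of C57BL/6 strain, are labelled T-cell lymphoblasts and TLX1 negative, and were not treated. RNA of each tumour was measured on 1 array with 22690 probe sets (groups of short probes for a transcript). The sources used here give neither the promoter of the ThPOK transgene nor the age of the mice. Whether replicates of a genotype are different mice is not stated, and a p-value here therefore speaks to the scatter of these samples alone, part of which may be technical.

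ThPOK is the protein of Zbtb7b, a BTB zinc finger transcription factor that directs developing T cells to the CD4 helper lineage. In the thymus it is induced in cells selected on class II molecules, where it holds down Runx3 and genes of the CD8 cytotoxic programme, the Cd8a and Cd8b1 coreceptor genes among them. Runx3 in turn silences Zbtb7b and Cd4 in cells of the CD8 lineage. Immature thymocytes pass from a stage with neither coreceptor to a stage with both (double positive) before either lineage is chosen.

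Values below are log2 intensities, and a difference is the ThPOK mean minus the mean of the 11 background means, each background counting equally, with its standard error. Of 12393 genes, 8519 passed a filter on low values and were tested with limma. At a Benjamini-Hochberg adjusted p under 0.05, 1881 genes (22.1%) were higher in ThPOK tumours and 1143 (13.4%) were lower. Of these, 104 (1.22%) were higher and 50 (0.587%) lower by at least 2-fold. The error in this test is the spread within backgrounds. With the spread between backgrounds counted as well (background as a random block), 9 genes (0.106%) were higher and 5 (0.0587%) lower. With the 35 reference tumours as 1 group, 324 (3.8%) were higher and 380 (4.46%) lower. After each array was centred on its median, 1294 (15.2%) were higher and 1722 (20.2%) lower, so the balance of higher and lower calls depends on the scaling. Most calls below set the ThPOK tumours apart from the average of these 11 backgrounds and not from the range that backgrounds span.

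The 3 ThPOK arrays correlated with each other at 0.971 to 0.982 over all probe sets. Their median log2 intensity was 9.01 ± 0.03 (SD, n = 3) against 8.93 ± 0.12 (SD, n = 35) in the reference (exact permutation test, two-sided, p = 0.277, adjusted over 2 measures 0.555), and beta-actin, read at its 3' and 5' ends, had a log2 ratio of 0.23 ± 0.03 against 0.26 ± 0.22 (exact permutation test p = 0.984, adjusted 0.984). By 45 control probe sets for bacterial and phage transcripts, clustered after the values were seen, the arrays formed 4 sets. The 3 ThPOK arrays shared a set with 2 reference arrays of 2 backgrounds, and 4 backgrounds (E2A knockout, Rag E2A knockout, Tal1 and Tal1-LMO2, 9 arrays) lay wholly in another. With array set as a block and without those 4 backgrounds, 244 genes (2.86%) were higher and 176 (2.07%) lower. The sets are not a recorded batch, and they depend on the controls used: by 18 hybridization controls alone, 2 of the 3 ThPOK arrays fell with the 9 arrays of those 4 backgrounds under average linkage, and all 3 fell with 10 reference arrays, none of those 9, under Ward linkage. A set effect and a genotype effect can be told apart here only through those 2 reference arrays.

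Zbtb7b itself was seen by 2 probe sets, and they gave unequal answers. The dimmer Zbtb7b probe set read 9.77, 9.60 and 9.48 in ThPOK replicates 1, 2 and 3. Those 3 values lay above all 35 reference arrays, although the highest, a Cdkn2a knockout tumour at 9.45, came close. The reference background means ran from 8.34 (Pokemon) to 8.86 (Cdkn2a knockout). Of all probe sets tested in limma, 19.8% were called higher. The Zbtb7b difference was 1.01 ± 0.12, or 2.01-fold, with a limma adjusted p of 4.29e-07 over these probe sets. It also passed with background as a random block (adjusted p = 0.0286) and with array set as a block (1.21 ± 0.21, adjusted p = 0.00234). The other Zbtb7b probe set, brighter over all arrays and so the one that stands for the gene, read 9.57, 9.66 and 9.50. On the dimmer Zbtb7b probe set 2 of the 35 reference arrays exceeded their array median, so it passed the filter only through ThPOK arrays. Its calls after the filter, those with either block among them, are therefore a description. With no filter its adjusted p in limma was 3.67e-07. On the brighter one the difference of 0.30 ± 0.16 was not called (adjusted p = 0.139), and the E2A knockout mean, 9.70 ± 0.66 (SD, n = 2), was higher. Whether either probe set can detect transgene RNA is not stated. Outside the comparison, TLX1 and p53 knockout tumours read 9.86 and 9.53 on the dimmer probe set, so a high reading there was not limited to ThPOK tumours.

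**Figure D1:**
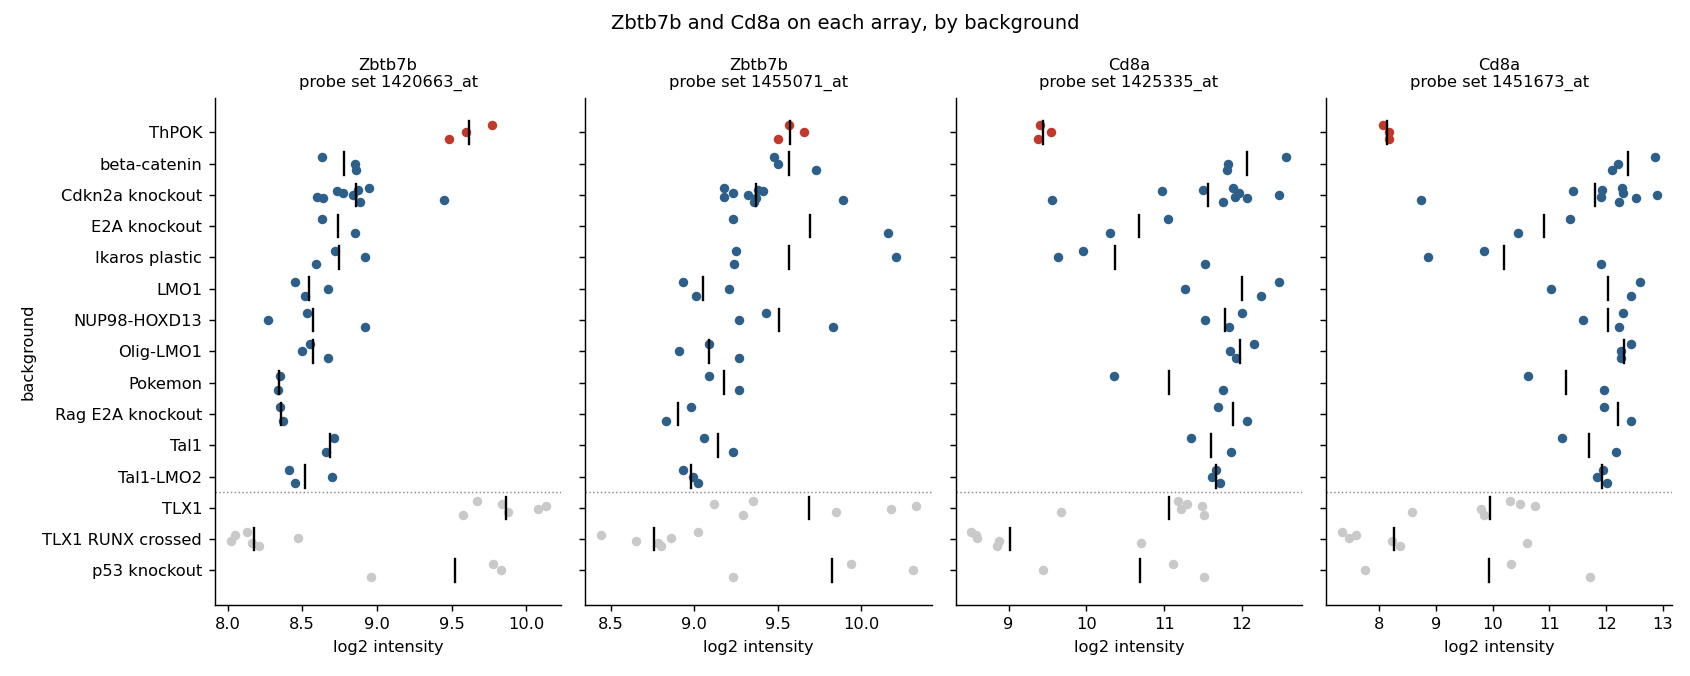
Log2 intensity of the 2 Zbtb7b and 2 Cd8a probe sets on each array (points) and the mean of each background (black bars), with ThPOK in red, the 11 reference backgrounds in blue and the backgrounds outside the comparison in grey below the dotted line. ThPOK tumours lie above all 35 reference arrays on the leftmost panel and below all 35 on both Cd8a panels; among the grey points, several read as high on Zbtb7b or as low on Cd8a.

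Cd8a, the alpha chain of the CD8 coreceptor, was the gene of the CD8 list with the largest difference. On the Cd8a probe set that stands for the gene the 3 ThPOK arrays read 9.40, 9.55 and 9.38. All 3 lay below every reference array, although the lowest, a Cdkn2a knockout tumour at 9.56, came close. The Cd8a difference was -2.07 ± 0.37, 4.19-fold lower, with an adjusted p of 0.000123 in limma. The other Cd8a probe set read 8.07, 8.17 and 8.17, against reference background means of 10.20 (Ikaros plastic) to 12.39 (beta-catenin), a difference of -3.57 ± 0.52. The lowest reference array on that probe set read 8.73. Cd8a passed with array set as a block (-2.36, adjusted p = 0.0494) but not with background as a random block (adjusted p = 0.238). In bulk tumour RNA, fewer cells that express a gene and less RNA per cell cannot be told apart.

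The promoter of Cd8a is shown because the gene was low on every ThPOK array. The 250 bases before its start in RefSeq's GRCm38.p6 annotation lie at chr6:71373177-71373426, plus strand. They were searched on both strands for the letters TGTGGT or TGCGGT, read by RUNX proteins, and hold no match; nor do they hold CAGCTG, an E-box, which was searched first. Of 32851 windows of that length before mouse gene starts (1 chromosome left out), 18.6% hold a RUNX match and 13% an E-box.
Cd8a: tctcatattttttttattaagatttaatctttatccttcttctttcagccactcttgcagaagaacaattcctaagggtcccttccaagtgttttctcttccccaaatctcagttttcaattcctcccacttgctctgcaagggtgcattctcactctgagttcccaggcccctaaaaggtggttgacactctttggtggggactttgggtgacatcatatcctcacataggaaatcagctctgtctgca

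The partner chain did not follow on every array. Cd8b1 read 11.90, 9.24 and 10.59 in replicates 1, 2 and 3, so replicate 1 sat near the reference median of 11.95 and replicate 2 near the lowest reference array at 9.19. Its difference of -1.10 ± 0.49 was not called (adjusted p = 0.0818). Cd4, the other coreceptor, read 9.37, 11.11 and 11.18, low on the array where Cd8b1 was high, with a difference of -0.13 ± 0.30 (adjusted p = 0.772). Replicate 1 thus held the lowest Cd4 and the highest Cd8b1 reading of the 3, while Cd8a was low on all 3.

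Of 8 CD8 lineage genes that passed the filter, 3 fell, 1 rose and 4 were not called (37.5% lower, against 13.4% of all genes tested), with a median difference of -0.21 against 0.041 over all genes. Besides Cd8a, Stat5b, which carries cytokine signals, read 10.74, 10.40 and 10.32 and fell by 0.68 ± 0.16 (adjusted p = 0.00131). Cbfb, the partner of RUNX proteins, fell by 0.34 ± 0.12 (adjusted p = 0.0239). Runx1 was higher by 0.41 ± 0.16 (adjusted p = 0.0439), but its direction depends on the probe set: the mean of its probe sets gave -0.08. Runx3 did not pass the filter, and read 8.78, 8.72 and 8.74 against a reference median of 8.27, the second highest of the 12 background means. Ccr9, a chemokine receptor of thymocytes, read 11.54, 12.67 and 12.43, a difference of 1.21 ± 0.70 that was not called (adjusted p = 0.183), as were Patz1 (0.25) and Cd7 (-0.08). Itgae did not pass the filter. Of these calls, only that of Cd8a remained with array set as a block.

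Of the 12 CD4 lineage and helper genes tested, 2 fell (16.7%, against 13.4% of all genes), none rose and 10 were not called, with a median of -0.34. Cd5, a surface receptor that tunes T-cell receptor signals, read 8.15, 8.21 and 7.65 against a reference median of 9.66, and fell by 1.34 ± 0.49 (adjusted p = 0.0353). Leaving out any replicate ended that call. Stat6, the transcription factor of interleukin-4 signalling, read 10.43, 9.92 and 9.86 and fell by 0.45 ± 0.11 (adjusted p = 0.00201). Gata3, which acts before ThPOK in the CD4 lineage, differed by 0.21 ± 0.30, Cd4 by -0.13, Tox by -0.10, Satb1 by -0.40, Lef1 by -0.43, Myb by -0.40, Bcl11b by -0.58, Socs1 by -0.27, Icos by -0.08 and Zbtb7b by 0.30, none of them called. Cd40lg, Ccr4, Ikzf2 and Maf did not pass the filter and read 7.92 to 8.52 on the ThPOK arrays. Neither call on this list remained with array set as a block, where 2 genes were lower at an unadjusted p under 0.05 in limma.

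**Figure D2:**
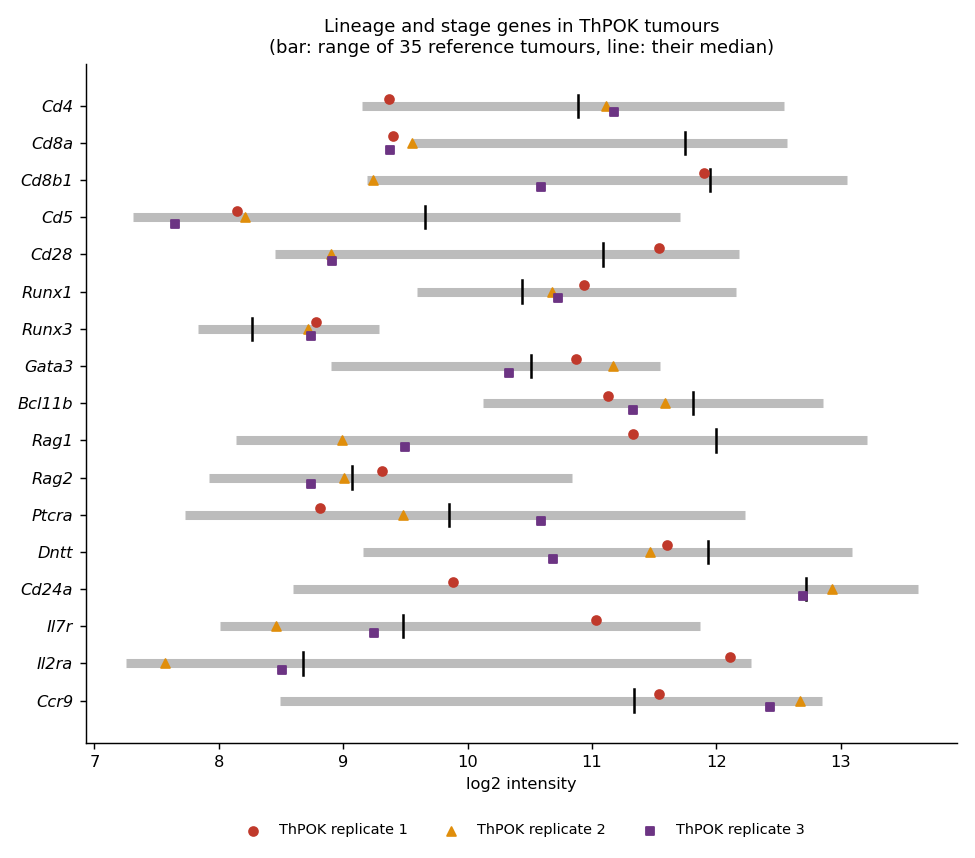
Log2 intensity of lineage and stage genes on the 3 ThPOK arrays (symbols by replicate) beside the range (grey bar) and median (black line) of the 35 reference arrays. Cd8a and Cd5 are low on all 3, while Cd4, Cd28, Rag1, Cd24a and Il2ra split replicate 1 from replicates 2 and 3. Cd8b1 differs among all 3.

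Cytotoxic effector genes were mostly not detectable as different. Of 19 measured, 7 passed the filter and 1 of these, Gzmk, rose (14.3%, against 22.1% of all genes). Gzmk read 9.30, 8.57 and 9.07, a difference of 0.53 ± 0.18 (limma adjusted p = 0.0199). That call ended with array set as a block. Gzma, a granzyme with high readings in many of the reference tumours, read 11.59, 13.17 and 12.19 (difference -0.12 ± 0.78). Ctsw, Ccl5, Nkg7, Tbx21 and Il2rb differed by -0.10, 0.27, -0.49, 0.04 and 0.02, all not called. Perforin (Prf1) and Gzmb did not pass the filter and read at most 8.57 and 8.90.

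Among genes of the double-positive stage, Rag1 stood out. Rag1, which with Rag2 cuts DNA to rearrange receptor genes, read 11.33, 8.99 and 9.50 against a reference median of 12, and fell by 2.05 ± 0.53 (4.15-fold, adjusted p = 0.00388). Replicates 2 and 3 were low and replicate 1 was near the reference. Without replicate 2 the difference was -1.58 and no longer called (adjusted p = 0.0728), and with array set as a block it was -2.62 (adjusted p = 0.132). Rag2 read 9.31, 9.01 and 8.74, with a difference of -0.08 ± 0.28. Of the 11 genes on the list, 1 fell (9.09%, against 13.4% of all genes), none rose (against 22.1%) and 10 were not called, with a median of -0.42. Arpp21 (0.82 ± 0.55) and Cd1d1 (0.47 ± 0.19, adjusted p = 0.0537) had positive differences, and Dntt, the enzyme that adds bases at receptor joins, had one of -0.74 ± 0.40.

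Receptor signalling genes differed singly. Of 18 genes of the receptor complex and its proximal kinases and adaptors, 1 was higher and 1 lower. That is 5.56% in each direction, against 22.1% higher and 13.4% lower of all genes. Lat, the adaptor that links the receptor to calcium and Ras signals, was higher (12.91, 13.08 and 13.18, 0.52 ± 0.20, limma adjusted p = 0.0477). The costimulatory receptor Cd28 was lower (11.54, 8.90 and 8.91, -1.17 ± 0.40, adjusted p = 0.025). Lat was called in none of the fits that left out a replicate, and without replicate 2 or replicate 3 Cd28 was not called (adjusted p = 0.275 and 0.271). The CD3 chain genes Cd3d, Cd3e and Cd3g differed by 0.27, -0.12 and 0.11, and were not called. Among 11 genes that receptor signals switch on, 2 rose (18.2%, against 22.1% of all genes). They were the nuclear receptors Nr4a3 (11.16, 11.18 and 10.76, 0.90 ± 0.17, limma adjusted p = 0.000196) and Nr4a2 (0.39 ± 0.12, adjusted p = 0.0112). In limma none of the 11 rose with array set as a block or with the 35 reference tumours as 1 group (1 higher at an unadjusted p under 0.05 in each), and without the 4 backgrounds of the other array set 1 rose and 3 fell. Egr1 read 10.83, 8.71 and 9.36 and was not called. Of 10 genes that define the T lineage, Cd5 alone fell and 9 were not called, and the labelled cell type was checked on Cd3d at 13.01 to 13.04 and Thy1 at 13.43 to 13.56 on all 3 arrays.

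Notch pathway genes, which drive T-lineage commitment, showed no common direction. Igf1r, a growth factor receptor gene that Notch1 activates in T-cell leukaemia, read 10.57, 10.12 and 9.84 against a reference median of 8.73 and a highest reference value of 10.40. It rose by 1.16 ± 0.18 (2.23-fold, adjusted p = 3.33e-05), and was called with array set as a block. Rbpj, the DNA-binding partner of Notch, read 10.11, 10 and 10.05 and fell by 0.61 ± 0.10 (adjusted p = 4.17e-05); all 3 arrays lay below the lowest reference array at 10.38. Hey1 rose by 0.24 ± 0.08 (adjusted p = 0.0221). Rbpj (adjusted p = 0.0912) and Hey1 (adjusted p = 0.884) lost their calls with array set as a block, and Notch1 (0.83 ± 0.49), Notch3 (-0.41), Hes1 (0.48), Dtx1 (0.52) and Nrarp (-0.86) were not called. In all, 2 of 15 rose (13.3%, against 22.1% of all genes), 1 fell (6.67%, against 13.4%) and 12 were not called.

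ThPOK belongs to the BTB zinc finger family, and its closest relatives were Zbtb7a and Zbtb7c. Zbtb7c was higher (9.21, 9.37 and 8.99, 0.39 ± 0.10, adjusted p = 0.00287) and so was Zbtb17 (Miz-1), a partner of Myc (0.34 ± 0.08, adjusted p = 0.00199). Zbtb7a, the gene of Pokemon, read 8.35, 8.41 and 8.47. Its difference of -0.47 ± 0.13 (adjusted p = 0.00508) is taken against a reference that holds the Pokemon transgenic tumours, with a highest reference array at 12.13, and the median of the reference arrays was 8.50. Zbtb1, a factor needed for lymphocyte development, fell by 0.63 ± 0.13 (adjusted p = 0.000733). Of 17 family members tested, 3 rose, 3 fell, Zbtb7a among them, and 11 were not called. That is 17.6% in each direction, against 22.1% higher and 13.4% lower of all genes. Bcl6 was among those not called (-0.02). Without the Pokemon tumours 2 rose and 2 fell in limma. No member was called in limma with array set as a block (1 higher and 3 lower at an unadjusted p under 0.05).

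Most early progenitor genes were too dim to be tested. Of 16 early progenitor genes, 6 passed the filter: Bcl11a (9.13, 9.39 and 9.04, 0.78 ± 0.15), Flt3 (0.53), Lmo2 (0.50) and Gata2 (0.29) rose, and Lmo1 fell (-0.71). That is 66.7% higher and 16.7% lower of the 6, against 22.1% and 13.4% of all genes. Lmo1 is compared with a reference in which LMO1 is itself a transgene. With the LMO1 or the Olig-LMO1 tumours left out, no gene of the list was called lower in limma. Bcl11a passed the filter only through the ThPOK arrays, which favours a call of higher, and the count supports nothing about the list. Centring each array on its median left 2 of these 4 called higher. With array set as a block, none of the 6 rose in limma (1 at an unadjusted p under 0.05) and 1 fell. With the 35 reference tumours as 1 group, 1 rose in limma (2 at an unadjusted p under 0.05) and none fell. Of 14 growth and G1 genes, 3 rose and 2 fell (21.4% and 14.3%, against 22.1% and 13.4% of all genes). Ccnd2, which encodes cyclin D2, read 10.20, 11.62 and 10.28 against a reference median of 9.11 and rose by 1.36 ± 0.44 (limma adjusted p = 0.018). That call ended without replicate 2 (0.90, adjusted p = 0.216). E2f1 and Mycn rose by 0.39 each. On the probe set of E2f1 with the largest interquartile range the difference was -0.16. Rb1, which restrains E2F factors, read 10, 9.63 and 9.68, all below the lowest reference array at 10.03, and fell by 0.83 ± 0.15 (adjusted p = 0.00018). Myc read 10.82, 10.66 and 10.76 and fell by 0.69 ± 0.20 (adjusted p = 0.00988).

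Genes of DNA replication were lower as a group of counts. Of 20 tested, 12 fell (60.0%, against 13.4% of all genes), 1 rose and 7 were not called, with a median of -0.40 against 0.041 over all genes. For 10 of the 20 the ThPOK mean was the lowest of the 12 background means, against 11.8% of all genes. Cdc6, which loads the replicative helicase, read 9.56, 10.03 and 9.38 against a reference median of 10.91 and fell by 1.13 ± 0.23 (adjusted p = 0.000524). Mcm4, a helicase subunit, read 11.01, 11.02 and 10.77 against a median of 11.97; the lowest reference array, at 11.02, met the highest of the 3. It fell by 1.0 ± 0.16 (adjusted p = 2.41e-05). Pola1, the catalytic subunit of polymerase alpha, fell by 0.82 ± 0.21, Mcm5 by 0.77 ± 0.16, Cdt1 by 0.59 ± 0.17 and Rrm2, of ribonucleotide reductase, by 0.55 ± 0.18. Mcm6, Mcm2, Mcm7, Pcna, Rfc5 and Cdc45 fell by 0.31 to 0.46. Tyms, thymidylate synthase, rose by 0.31 ± 0.09.

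Replicate 2 was the highest of the 3 for Cdc6, Cdt1, Pola1 and most other replication genes, and the mean log2 level over the 20 genes was 10.96, 11.24 and 10.86 in replicates 1, 2 and 3, against a reference median of 11.53 and a range of 10.50 to 11.77. Fewer genes were called lower without replicate 1 (5) or replicate 3 (5), and 11 were without replicate 2. In limma none was called with array set as a block (1 lower at an unadjusted p under 0.05), where the median was -0.26, and 3 were with the 35 reference tumours as 1 group. Of 19 genes of mitosis, 2 rose (Cenpa 0.67 ± 0.18, Mad2l1 0.44 ± 0.15), 2 fell (Ttk -0.57 ± 0.15, Bub1 -0.53 ± 0.21) and 15 were not called, with a median of -0.08. That is 10.5% in each direction, against 22.1% higher and 13.4% lower of all genes. The difference between the 2 lists was not tested.

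The promoters of Mcm5 and Mcm6 are shown because these helicase genes fell and carry the letters TTTCGCGC or TTTGGCGC, read by E2F factors, searched here on both strands with overlapping matches counted, and capitals mark them. In RefSeq's GRCm38.p6 annotation the 250 bases before the start lie at chr8:75109259-75109508, plus strand, for Mcm5, with 2 matches that overlap, 1 on each strand. They lie at chr1:128359706-128359955, minus strand, for Mcm6, with 3, of which 2 overlap. Of the 12 replication genes that fell, 11 had a promoter entry and 3 of these held a match. Of the 7 not called, 5 had an entry and 1 held a match. Over all 32851 promoters the share was 0.654%.
Mcm5: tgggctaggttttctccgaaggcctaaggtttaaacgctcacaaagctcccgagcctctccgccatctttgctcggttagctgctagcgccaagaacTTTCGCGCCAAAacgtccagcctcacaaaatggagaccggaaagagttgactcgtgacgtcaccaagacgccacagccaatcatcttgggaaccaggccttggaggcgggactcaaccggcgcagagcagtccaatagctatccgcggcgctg
Mcm6: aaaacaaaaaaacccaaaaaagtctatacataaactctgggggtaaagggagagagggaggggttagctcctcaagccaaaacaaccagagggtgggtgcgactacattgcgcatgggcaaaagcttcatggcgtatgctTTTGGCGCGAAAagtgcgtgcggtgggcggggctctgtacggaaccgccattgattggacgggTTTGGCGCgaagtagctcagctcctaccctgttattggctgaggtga

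Markers of myeloid cells were higher in ThPOK tumours. Of 18 tested, 13 rose (72.2%, against 22.1% of all genes), none fell and 5 were not called, with a median of 0.72. The complement genes C1qa, C1qb and C1qc, made by macrophages, rose by 1.14 ± 0.22, 1.51 ± 0.26 and 1.46 ± 0.25, with C1qb at 12.34, 11.69 and 12.17 against a reference median of 11.09. Fcgr3, an Fc receptor, rose by 1.29 ± 0.32 and Cd68, a macrophage protein, by 1.05 ± 0.23. The summed linear intensity of the 18 genes was 47470, 32997 and 42487 in replicates 1, 2 and 3, within a reference range of 9408 to 59320 with a median of 27361, and 7 reference tumours exceeded the lowest of the 3. Defining markers were present on all 3 arrays: Csf1r read 11.32 to 11.52 and Adgre1 9.72 to 10.20. Itgam (8.71, 7.49 and 7.70), S100a8 and S100a9 were not called. The count was 7 without replicate 1, 12 without replicate 2 and 9 without replicate 3. In limma it was 0 with the 35 reference tumours as 1 group (7 higher at an unadjusted p under 0.05) and 0 with array set as a block (2 at an unadjusted p under 0.05), where the median was 0.55.

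**Figure D3:**
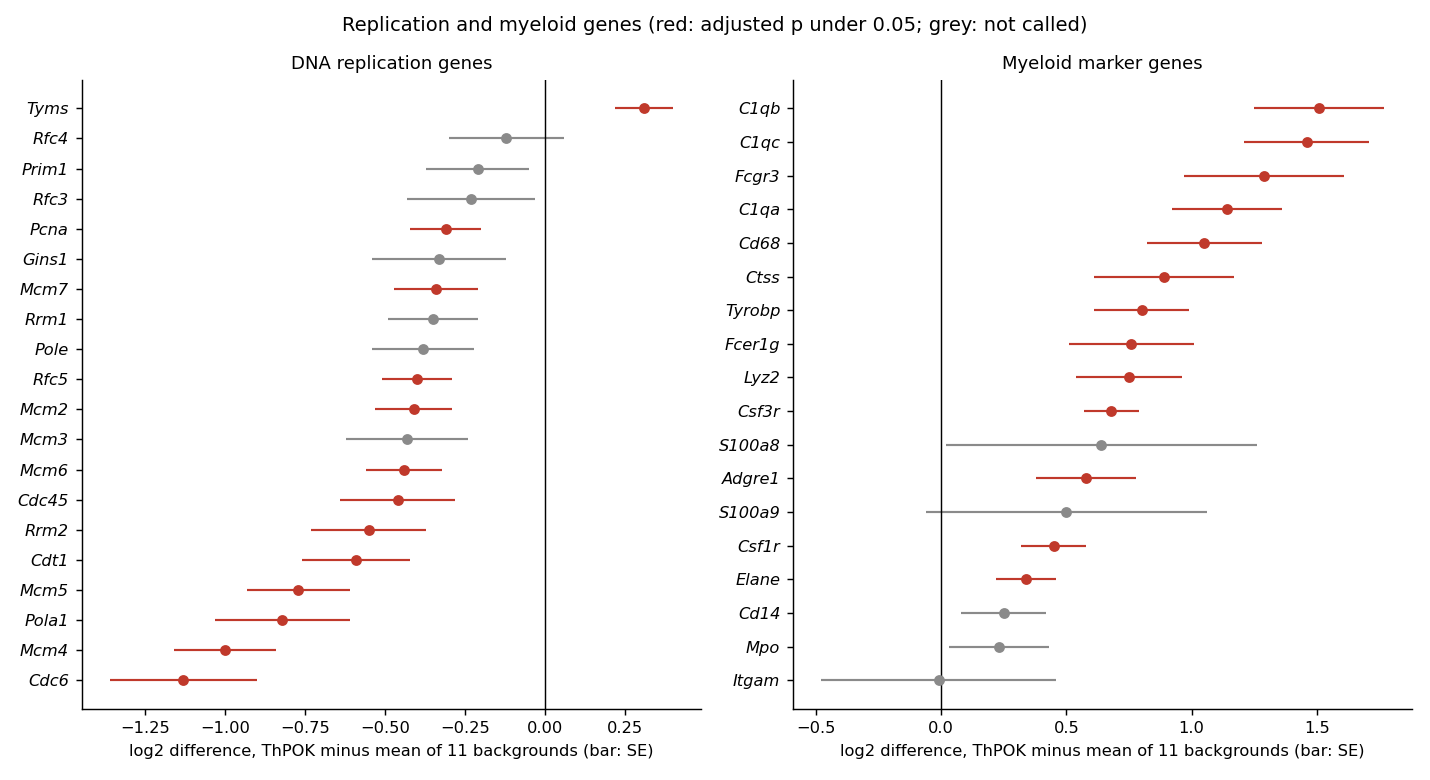
Log2 difference of each DNA replication gene (left) and myeloid marker gene (right), ThPOK mean minus the mean of 11 background means, with its standard error as the bar. Red points passed an adjusted p of 0.05 in limma: 12 of 20 replication genes lie below 0, and 13 of 18 myeloid markers lie above it.

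Other marker lists moved less. Stromal, endothelial and epithelial markers rose in 6 of 16 (37.5%, against 22.1% of all genes), led by the matrix genes Col3a1 (1.4 ± 0.43) and Sparc (1.24 ± 0.32) and by Fabp4 (1.22 ± 0.46). That count was 1 without replicate 1, 2 without replicate 2 and 4 without replicate 3. Without the 4 backgrounds of the other array set, and with no block, 0 rose and 1 fell in limma (2 higher at an unadjusted p under 0.05), with a median of 0.12. None was called in limma with array set as a block (0 also at an unadjusted p under 0.05), where Dcn turned from 0.89 to -0.12. Their summed intensity in ThPOK tumours was 19095 to 26212, within a reference range of 5023 to 44648. Erythroid markers Slc4a1 (0.99 ± 0.12) and Hba-a1 (0.85 ± 0.16) rose and Tfrc fell (-0.70 ± 0.21) among 7 tested (28.6% higher and 14.3% lower, against 22.1% and 13.4% of all genes). B-cell markers Igll1 (0.46) and Cd22 (0.38) rose among 9 (22.2%, against 22.1%), while the B-cell receptor genes Cd79a and Cd79b read at most 8.02. Of 6 natural killer and innate lymphoid markers, 2 rose (33.3%, against 22.1%), Tyrobp (0.80 ± 0.19) and Fcer1g (0.76 ± 0.25), which the myeloid list also holds. The part of such cells in the differences above was not tested.

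Cytokine feedback genes and STAT5 targets fell in 5 of 12 (41.7%, against 13.4%), none rose, and the median was -0.30. Stat5b, described above, and Pim1, a kinase induced by STAT5 (9.03, 9.34 and 9.05, -0.68 ± 0.22, adjusted p = 0.0159), led the list. Stat5a fell by 0.47 ± 0.16, and the survival genes Mcl1 and Bcl2l1 fell by 0.40 ± 0.11 and 0.32 ± 0.12. On another probe set of Pim1 the difference was 0.15. The count fell to 2 or 3 without any 1 replicate and, in limma, to 0 with array set as a block (4 lower at an unadjusted p under 0.05). Among 12 genes of the BCL2 family, which Mcl1 and Bcl2l1 also belong to, the death-promoting Bbc3 (10.55, 10.44 and 10.11, 0.66 ± 0.12, limma adjusted p = 0.000118) and Bok (0.28 ± 0.08) rose. In this family 2 rose, 2 fell and 8 were not called, or 16.7% in each direction, against 22.1% higher and 13.4% lower of all genes.

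Interferon-stimulated genes rose in 3 of 15 (Usp18, Ifit3 and Irf7) and fell in 1 (Ifit2). Each of these shares was below that of all genes (22.1% higher and 13.4% lower). Class I and TL antigen genes fell in 1 of 11 (9.09%, against 13.4% of all genes). That gene, H2-T3 (8.46, 7.92 and 8.25, -1.95 ± 0.75, limma adjusted p = 0.0413), was not called without any 1 replicate. Genes of maturation and egress fell in 1 of 12 (8.33%), the chemokine receptor Cxcr4 (-0.58 ± 0.22, limma adjusted p = 0.0381), and ribosome biogenesis genes in 1 of 16 (6.25%). Both of these calls, too, were lost on leaving out any 1 replicate. Of 6 E protein and Id genes none passed in limma (1 at an unadjusted p under 0.05), and Id2, an inhibitor of E proteins, had the largest difference of the 6, 0.98 ± 0.42 (adjusted p = 0.0685).

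The largest differences were found by a rule that asked for all 3 ThPOK arrays outside the reference quartile and for the highest or lowest of the 12 background means. Among the 12 highest, Smim27 read 11.76, 12.01 and 11.93 against a reference median of 9.33 (2.38 ± 0.20, adjusted p = 2.34e-09) but a highest reference array of 12.17, and the Cdkn2a knockout tumours as a group were also high in Smim27 (11.41 ± 0.58, SD, n = 9). Fbp1, a gluconeogenic phosphatase, read 10.04, 11.99 and 11.97 against 8.12 (2.38 ± 0.45, 5.2-fold). Stc1, the hormone stanniocalcin 1, read 11.54, 11.44 and 10.79, all above the highest reference array at 10.66 (2.02 ± 0.24, adjusted p = 5.57e-07). Unc5c, a netrin receptor, read 9.93, 10.34 and 10.33 against a reference median of 8.33 (1.78 ± 0.13, adjusted p = 4.56e-11). Cdkn2a knockout tumours were high in Unc5c as well, at 9.74 ± 0.30 (SD, n = 9) and up to 10.21, above ThPOK replicate 1. Dsn1, a kinetochore protein, Dipk1b and Sdc4, the proteoglycan syndecan 4, were higher by 1.96, 2.08 and 1.89. Mt1, a metallothionein, and Oprk1, the kappa opioid receptor, varied among the 3: 12.67, 12.22 and 11.43 for Mt1, and 8.35, 9.35 and 11.07 for Oprk1, which passed the filter only through the ThPOK arrays.

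Popdc3 and Bves, both of the Popeye-domain family of cyclic AMP binding membrane proteins, are neighbouring genes on chromosome 10 and both were among the 12. Popdc3 read 9.37, 10.26 and 10.32 against a reference median of 7.44 (2.28 ± 0.45, 4.86-fold, adjusted p = 0.000344). Bves read 9.86, 10.56 and 10.06 against 8.32 (1.77 ± 0.31, 3.41-fold, adjusted p = 0.000108). A single reference array exceeded the lowest ThPOK value of each. Prep, the next gene on the Popdc3 side, differed by -0.13 (adjusted p = 0.569). Blocking on array set gave a difference of 1.39 for Popdc3 (adjusted p = 0.316) and 1.46 for Bves (adjusted p = 0.0932).

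Usp18, which removes the interferon-induced modifier ISG15, read 8.62, 11.69 and 11.55 against a reference median of 8.32 (1.96 ± 0.45, adjusted p = 0.00131). Replicates 2 and 3 lay above all reference arrays, whose highest was 10.94, and replicate 1 lay near the median. Ifit3 read 9.44, 9.42 and 9.01, with no such split (0.51 ± 0.11).

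**Figure D4:**
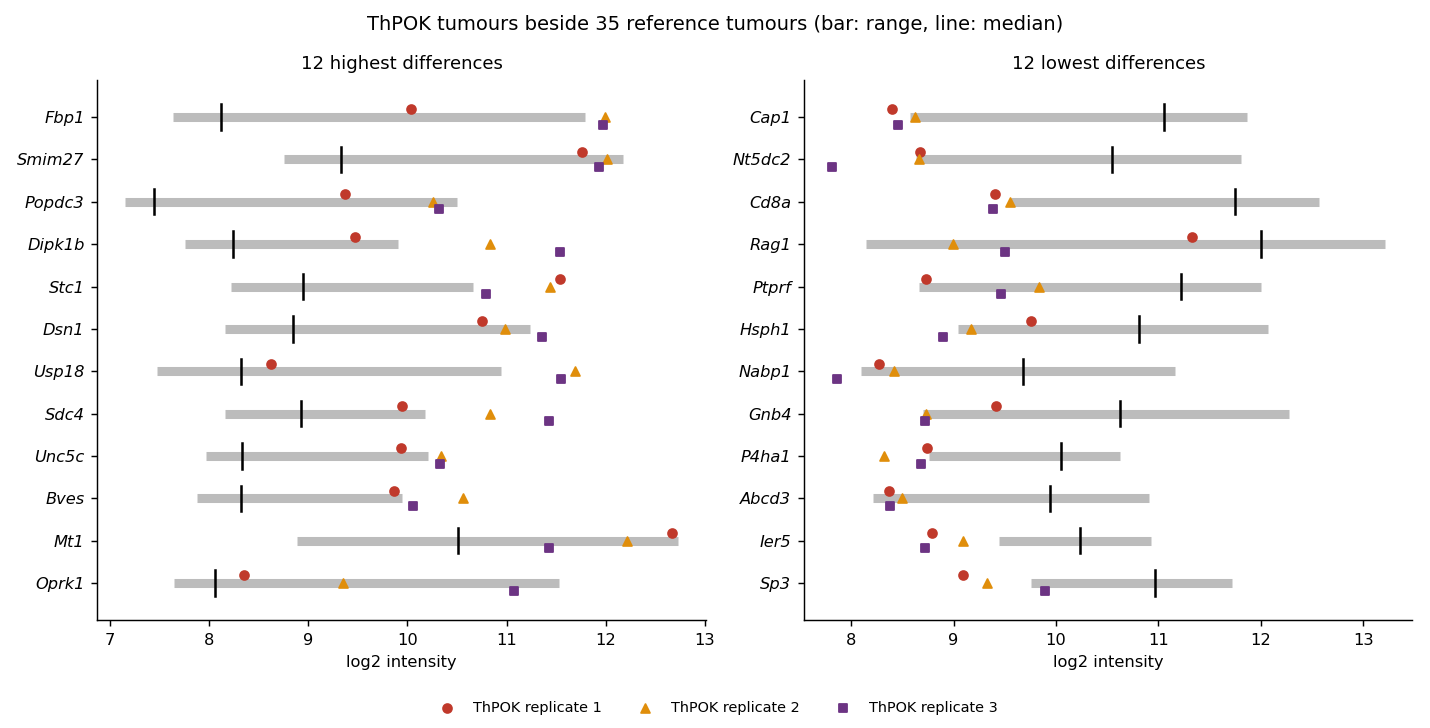
Log2 intensity of the 12 genes with the highest and the 12 with the lowest differences on each ThPOK array (symbols by replicate), beside the range (grey bar) and median (black line) of 35 reference arrays. Stc1 lies above and Cd8a, Ier5 and P4ha1 lie below the whole reference range on all 3 arrays.

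Among the 12 lowest, Cap1, an actin-turnover protein, read 8.40, 8.62 and 8.46 against a reference median of 11.05 (-2.33 ± 0.29, 5.04-fold lower, adjusted p = 9.39e-07), and its other probe set gave -2.23. Nt5dc2 read 8.67, 8.66 and 7.81 against 10.55 (-2.18 ± 0.30). Ptprf, a receptor tyrosine phosphatase, read 8.73, 9.83 and 9.46 against 11.22 (-1.68 ± 0.41), with -1.52 and -1.77 on its other probe sets. P4ha1, a collagen prolyl hydroxylase, read 8.74, 8.32 and 8.68 against 10.05 (-1.46 ± 0.22). Ier5 read 8.79, 9.09 and 8.72, below all reference arrays (-1.35 ± 0.19), but -0.30 on another of its probe sets. Hsph1, a chaperone of the Hsp110 family, Nabp1, a single-strand DNA binding protein, Gnb4, a G protein subunit, Abcd3, a peroxisomal transporter, and Sp3, a transcription factor, had differences of -1.63 to -1.35. For Sdc4, Smim27, Stc1 and Unc5c of the genes above, another probe set gave -0.34, -0.05, 0.45 and 0.16, the last 3 of them below the filter.

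Of these 24 genes, 22 were called with the 35 reference tumours as 1 group (Mt1 and Ptprf were not), 16 with array set as a block and 2, Smim27 and Unc5c, with background as a random block. Bves, Gnb4, Hsph1, Mt1, Nabp1, Oprk1, Popdc3 and Rag1 lost the call with array set as a block. Without replicate 1 the call of Mt1 was lost, without replicate 2 those of Rag1, Mt1 and Gnb4, and without replicate 3 those of Oprk1 (adjusted p = 0.227) and Gnb4.

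Of the 14 genes called with background as a random block, 2 were among the 24 above. Beside Smim27 and Unc5c, those higher were Ccdc107, Cdh4, Eva1a, Fkbp7, Gkn1, Gtsf1l and Pyroxd1, and those lower were Atp6v1b2, Lrrc41, Nisch, Usp19 and Ythdf3. Of the 14, Cdh4, Eva1a, Fkbp7, Gtsf1l and Pyroxd1 passed the filter only through the ThPOK arrays, which favours a call of higher. Their values are a description and their calls support nothing. Fkbp7, a folding enzyme of the endoplasmic reticulum, read 9.30, 9.22 and 9.32 above a highest reference array of 8.71 (difference 0.99). Gtsf1l read 9.36, 9.32 and 9.62 above 9.05 (difference 1.06). Ccdc107 read 10.41, 10.43 and 10.66 above 9.82 (1.15 ± 0.12). Cdh4, a cadherin, read 9.22, 9.27 and 9.23 above 8.85 (difference 0.93). Ythdf3, a reader of methylated RNA, read 9.23, 9.30 and 9.25 below a lowest reference array of 9.90 (-1.06 ± 0.11, random block adjusted p = 0.0246). Atp6v1b2, a proton pump subunit, read 9.72, 9.63 and 9.78 below 10.14 (-0.82 ± 0.09), though another probe set of it gave -0.03. Nisch, likewise, gave -0.83 on the probe set used and 0.25 to 0.44 on 3 others. All 14 were called with array set as a block, though for Cdh4, Eva1a, Fkbp7, Gtsf1l and Pyroxd1 that call, too, supports nothing. Over all genes tested, 59 (0.693%) had all 3 ThPOK arrays above all 35 reference arrays and 92 (1.08%) had all 3 below.

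The 3 ThPOK tumours were not alike. Replicate 1 stood 2 or more log2 units from the mean of the other two for 34 genes, 21 above and 13 below, against 9 genes each for replicates 2 and 3. Replicates 2 and 3 correlated at 0.966 over the genes tested, and each of them with replicate 1 at 0.937. Il2ra, the interleukin-2 receptor alpha chain of immature and activated T cells, read 12.11, 7.57 and 8.51, close to the highest reference array (12.28) in replicate 1 and to the lowest (7.25) in replicate 2. Wif1, an inhibitor of Wnt ligands, read 10.80, 6.45 and 6.82, and Irf4, a lymphoid transcription factor, read 11.21, 8.11 and 8.11. Il7r, the interleukin-7 receptor, read 11.03, 8.46 and 9.25. In the other direction Gem, a small GTPase, read 7.17, 10.94 and 11.15, above the highest reference array (9.26) in replicates 2 and 3, and Cd24a, a surface antigen of immature thymocytes, read 9.88, 12.93 and 12.70. Cd28 and Rag1 were high, and Usp18 low, in replicate 1. The Y-linked gene Eif2s3y was also among the 34, at 10.28, 7.02 and 7.20; the sex of the mice is not stated, and its part in the split was not tested. These genes were picked by the split after the values were seen and carry no test.

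By chromosome, the median difference over genes was taken on each ThPOK array after the array's differences were centred on their median, again after the values were seen and with no test. Chromosome 6, with 468 genes tested, stood at 0.05, 0.26 and 0.25 in replicates 1, 2 and 3, while the 35 reference arrays lay between -0.10 and 0.16. Split into 5 consecutive stretches of 93 or 94 genes, the chromosome lay at 0.21 to 0.31 in every stretch in replicates 2 and 3. Of the chromosome's genes 36.8% were called higher and 4.49% lower, against 21.2% and 13.9% of the genes on the other numbered chromosomes and X. Usp18, Ccnd2, Mad2l1, Bid, Cd4, Cd8a and Cd8b1 lie on this chromosome; Bid read 10.20, 11.64 and 11.91. Chromosome 15 stood at -0.14, 0.05 and -0.16. Of 700 values of reference arrays by chromosome, 4 lay 0.25 or more from 0. The part of this shift in the calls above was not tested.

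**Figure D5:**
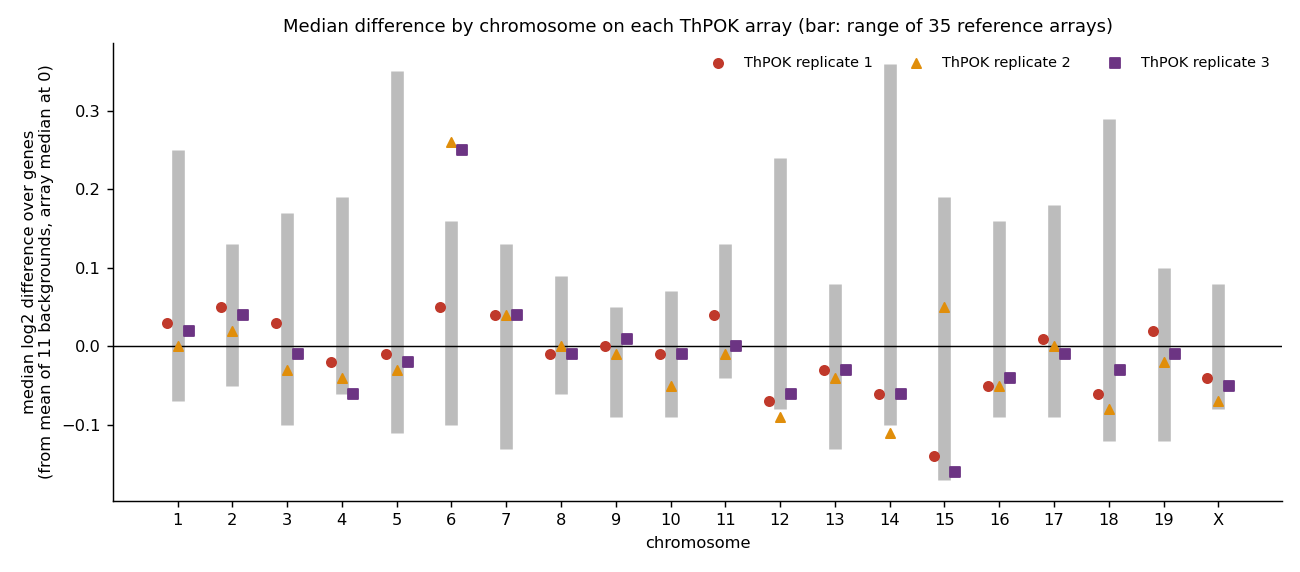
Median log2 difference over genes by chromosome on each ThPOK array (symbols by replicate), each array's median set to 0, beside the range over the 35 reference arrays (grey bars). On chromosome 6 replicates 2 and 3 stand at 0.26 and 0.25, above the reference range, and replicate 1 stands at 0.05.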

How the data were processed

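RNA of 53 tumours had been extracted with Trizol and labelled as biotin cRNA, per the labels. The authors deposited processed intensities on a linear scale. Background correction, probe summary and normalization are not stated for them, and each can shift all differences together. Intensities were converted to log2. Of 22690 probe sets, 20380 had 1 gene symbol in the platform annotation, 691 several, 1555 none and 64 were controls; 20351 matched the RefSeq table by Entrez number. For the 4956 of 12393 genes with several probe sets, the one with the highest mean of all arrays stood for the gene. A gene was kept if it exceeded the array median on 3 or more of the 38 arrays, which left 8519; 88 of them passed only through the ThPOK arrays, and 83 of these were called higher. The 2 most similar of the 53 arrays correlated at 0.9879, so no array was an exact copy of another. The number of arrays limits the precision.

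A group-means model was fitted with limma 3.58.1 (lmFit and eBayes, two-sided, Benjamini-Hochberg over all genes, threshold 0.05) in R 4.3.3. Tables, exact permutation tests and plots used SciPy 1.17.1, pandas 2.3.3, Matplotlib 3.10.9 and NumPy 2.4.6 under Python 3.11.15. The fit was tested on simulated data of this comparison with 200 changed genes among 8519. It recovered 90% of changes of 1 log2 unit and 98% of 2, with 4.57% of calls false. For unchanged genes the simulation set the ThPOK mean to the average of the 11 backgrounds, with independent scatter within backgrounds only. These rates therefore do not give the false share of the calls above. Gene lists, members, tests and alternatives were chosen with earlier results of these data known. Named genes are the 12 highest and 12 lowest called differences with all 3 ThPOK arrays beyond the reference quartile and an extreme mean among 12 backgrounds, without unnamed transcripts, receptor segments, histone and sex-linked genes, plus list members. Alternatives were other filters, probe set rules, scalings, error models, references, left-out arrays or backgrounds, a beta-actin covariate and a replicate block. Both fits on array sets were chosen after seeing the data, as was the clustering (average linkage of 45 control probe sets into 4 sets), after 6 clusterings had been looked at. The set that held most ThPOK arrays held from 2 to 34 reference arrays in these, and no fit was run on the others. The deviations of same-numbered arrays from their background means correlated at -0.267 to 0.243 (25 pairs, 2 over 0.1). These correlations cannot show whether the numbers pair samples, and the main fit used no pairing. Promoters are those of RefSeq (GRCm38.p6).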

Additional observations from a re-analysis of the deposited data

Results flagged for a closer look

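An array far from the others of its group was looked for in backgrounds of 4 to 10 arrays, which flags about 1 group in 20 by chance. In Cdkn2a knockout tumours of the reference, 1 array had a log2 median of 9.2 and 1 a beta-actin log2 ratio (3' end over 5' end) of 0.43. Zbtb7b means above that of ThPOK tumours occurred in backgrounds outside the comparison. On the dimmer Zbtb7b probe set the TLX1 tumours averaged 9.86 (SD 0.22, n = 6), against 9.62 (SD 0.15, n = 3) in ThPOK tumours. On the brighter Zbtb7b probe set the TLX1 tumours averaged 9.69 and the p53 knockout tumours 9.83, against 9.58 in ThPOK tumours. These means were not tested against that of ThPOK tumours.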

How the results depend on the processing

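Against 1881 genes higher and 1143 lower, no filter gave 3423 higher, the 35 reference arrays as 1 group 324 and 380, background as a random block 9 and 5 (consensus correlation 0.486), and array set as a block without 4 backgrounds 244 and 176; other clusterings of the control probe sets place the ThPOK arrays differently and were not fitted. Centring arrays gave 1722 lower and moved the share of higher calls from 62.2% to 42.9% (60.0% after quantile normalization), as the median of all genes shifted by -0.106, from 0.041 to -0.065. Leaving out a ThPOK replicate gave 1152 to 1376 higher and 706 to 723 lower, and leaving out 1 Tal1-LMO2 replicate 1859 and 1126. The replicate block gave 1760 higher and 1050 lower and moved neither count by over 1.5 times. Whether the replicate numbers pair samples is not known. Of 93 called genes among the 128 named, 93 held without a filter, 36 with the reference as 1 group, 20 with array set as a block and 59 to 64 without a ThPOK replicate. Directions reversed with the mean of probe sets for Runx1 (-0.08), with the probe set of largest interquartile range for Runx1 (-0.29), E2f1 (-0.16), Pim1 (0.15) and Sdc4 (-0.34), and with array set as a block for Dcn (-0.12). The cause was not tested. The difference of Zbtb7b on its dimmer probe set was called under each alternative in which it was tested, at 0.88 to 1.21. That probe set passed the filter only through the ThPOK arrays. Apart from the fit with no filter, these calls are therefore a description. The probe set did not pass the stricter filter and has no value there. The 3 ThPOK arrays and an unstated normalization limit all of these results.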
